A study of Mus musculus with 4 samples.

Results

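The cells described here are bone marrow HSPCs (hematopoietic stem and progenitor cells) that carried transcripts of T and innate lymphoid genes, and they are called lymphoid-gated cells. HSPCs were sorted from male C57BL/6-CD45.2 mice as Lin-, Sca1+, cKit+ and Flt3- cells and profiled with 10x Genomics Chromium 3′ single-cell RNA-seq, in which each captured transcript is counted once through a molecular tag (UMI). The 4 pools were young A (2 mice), young B (3 mice), aged A (3 mice) and aged B (2 mice). Young mice were 2 to 3 months old and aged mice 17 to 18 months old, the labels name no engineered allele and no treatment, and the letters stand for 2 sequencing facilities, each of which handled 1 young and 1 aged pool. The descriptions of young B and aged A name the other age, so the ages here follow the sample titles. The study reports Clu as higher in aged HSPCs, a result drawn from these same pools. The Clu shares given here are therefore a description and no independent check of the ages. Of the cells that were not lymphoid-gated, 2.89% in young A and 4.29% in young B held a Clu UMI. In aged A and aged B the shares were 44.8% and 59.5%. A cell was kept when its log total UMI count lay within 2 SD of the mean of its pool. A kept cell was a lymphoid-gated cell when at least 1 UMI was counted for 3 or more of 9 gate genes (Il7r, Trbc1, Trbc2, Bcl11b, Ccr9, Cxcr6, Il2rb, Cd7 and Ms4a4b). This rule found 95 of 14915 kept cells (0.637%), with 40 of 5189 in young A, 27 of 2244 in young B, 23 of 3328 in aged A and 5 of 4154 in aged B. Because those 9 genes chose the cells, their values are given as a description and were not tested.

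Lymphoid cells arise in the bone marrow from progenitors that gradually switch off the stem cell program. T cells finish their development in the thymus, where they rearrange the T-cell receptor genes with the Rag recombinase, whereas innate lymphoid cells (ILCs) and natural killer (NK) cells act without a rearranged antigen receptor. ILCs and NK cells depend on the transcriptional regulator Id2. Group 2 ILCs (ILC2s) are marked by high Gata3, the transcription factor Rora and the interleukin-33 receptor Il1rl1, and NK cells by Ncr1, receptors of the Klr family and cytotoxic effectors. Unrearranged T-cell receptor constant regions can also be transcribed in ILCs and NK cells, so a constant-region transcript does not by itself mark a T cell.

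The label of T and innate lymphoid priming was first set beside genes outside the gate. These can vary with the gate genes in the same cells, so their shares are a description and no independent check of the label. Id2 was counted in 70 of the 95 cells (73.7%, 95% exact binomial interval 63.6 to 82.2), against 13.1% of the other kept cells. Gata3 was counted in 58 cells (61.1%, interval 50.5 to 70.9), against 24.2% of the others. Of the T-cell receptor signalling genes, Lat was counted in 61 cells and Lck in 29, against 34.9% and 6.02% of the other kept cells. Cd4 was counted in 1 cell, Cd8a in 3, Cd8b1 in 3 and Cd3e, a CD3 chain needed for the T-cell receptor complex, in 6. The ILC cytokines Il5, Il13, Il17a and Il22 were counted in none, which at 3 cells of the total allows up to 3.16% of cells with a UMI of each and sets no limit on cells that express them, and the ILC3 receptor Il23r in 1. The CD3 and CD8 genes fell unevenly over the pools. At least 1 UMI of Cd3d, Cd3e, Cd3g, Cd8a or Cd8b1 was found in 5 of 40 cells of young A, 2 of 27 of young B, 2 of 23 of aged A and 3 of 5 of aged B. Of the antigens used for the sort, Ly6a (Sca1) was counted in 81 cells (85.3%) and Kit in 25 (26.3%), against 66.2% and 47.3% of the other kept cells.

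Free RNA in the droplets gives UMIs in cells that do not express a gene, so shares were set beside those of 383 other kept cells that carried at least 3 of 7 erythroid genes and whose median depth was 6810 to 11147 UMIs over the pools. Erythroid-gated cells held an Id2 UMI in 5.74% of cases, Gata3 in 11.0%, Thy1 in 3.39% and Cd8a in none. For the lymphoid-gated cells the median depth was 6600 UMIs in young A, 6416 in young B, 5902 in aged A and 11570 in aged B, against 6074, 6284, 5673 and 6718 in the other kept cells. The lymphoid-gated cells were thus deeper in all 4 pools, the widest gap being in the 5 cells of aged B. The exact sign-flip test over the 4 pools gave p = 0.12, the smallest p that 4 pools allow. A gate that needs UMIs of 3 genes is met more easily by deeper cells, so this gap is not independent of the gate. Kept cells with 1 gate gene had median depths of 7541, 7875.5, 5668 and 8082 UMIs in young A, young B, aged A and aged B. Those with 0 gate genes had 6007, 6247, 5673 and 6708. After thinning every cell to 3000 UMIs, the median number of genes was 1390.5 against 1382 in young A, 1248 against 1238 in young B, 1450 against 1454 in aged A and 1290 against 1245 in aged B (exact sign-flip p = 0.25). The median mitochondrial share was lower in the lymphoid-gated cells of every pool, at 2.63% against 3.07%, 2.32% against 2.74%, 2.77% against 3.34% and 2.59% against 3.04% in the same order of pools (exact sign-flip p = 0.12). Of the barcode sequences, 99 occurred in more than 1 pool, and 1 of these belonged to a lymphoid-gated cell. Doublet scoring marked 1 lymphoid-gated cell, in young A.

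The gate genes themselves were uneven in frequency. Il7r, the interleukin-7 receptor, was counted in 68 cells, the T-cell receptor beta constant regions Trbc2 in 63 and Trbc1 in 49, the chemokine receptors Cxcr6 in 54 and Ccr9 in 48, and Bcl11b, a transcription factor of T-cell and ILC2 commitment, in 35. Ms4a4b was counted in 30 cells, and the interleukin-2 receptor chain Il2rb and the surface antigen Cd7 in 19 each. The pairs of genes that occurred together differed widely. Il7r and Trbc2 were found together in 46 cells and Ccr9 and Cxcr6 in 27, whereas no cell held both Ccr9 and Cd7, although 48 and 19 cells held each. Il2rb was found with Cd7 in 12 cells and with Ms4a4b in 16, but with Bcl11b in 1 and with Ccr9 in 2.

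To describe how far a gate gene went with the rest of the gate, the cells were also chosen by the other 8 genes alone. Among 75 cells with at least 3 of the other 8 genes, 48 held Il7r (64.0%), against 0.681% of the remaining cells. The same shares were 61.4% against 0.809% for Trbc2, 46.8% against 0.364% for Cxcr6 and 17.4% against 0.465% for Cd7. Each of the 9 genes was more frequent in the cells chosen without it. Trbc1 and Trbc2 are near-identical neighbours on chromosome 6 (GRCm38 chr6:41538218-41539881 and chr6:41546730-41548352), so reads may have been split between them.

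Exactly 3 gate genes were counted in 33 cells, 4 in 34, 5 in 20 and 6 or 7 in 8, and a further 64 kept cells held exactly 2. Id2 was counted in 72.7% of the cells with 3 gate genes and 65.6% of those with 2, Gata3 in 57.6% and 59.4%, and Itgb7 in 15 of 33 and 32 of 64 cells. Kit was counted in 42.4% of the cells with 3 genes, 46.9% of those with 2 and 17.7% of those with 4 or more. Thy1 was counted in 42.4% of the cells with 3 gate genes and 16 of the 64 cells with 2, and Ly6a in 84.8% and 65.6%. Of 15 genes compared in this way, 9 were more frequent with 3 gate genes and 6 with 2.

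The 95 cells were not alike, and most fell under 1 of 4 sets of lymphoid transcripts that were trimmed after their values had been seen and are given without a test. A cell was assigned to a set when it held at least 2 of its genes. Names such as ILC2 cells and NK cells below stand for the cells of a set, and their identity as a cell type was not tested. Early lymphoid genes (Dntt, the template-free DNA polymerase of receptor rearrangement, Rag1, Rag2 and Ly6d) were held by 12 cells, ILC2 genes (Il1rl1, Klrg1, Il17rb, Rxrg, Calca and Ltb4r1) by 31, NK genes (Ncr1, Klrd1, Klrk1, Klrb1c, Klre1, Xcl1, Gzma, Tbx21 and Eomes) by 15, and Cd3 and Cd8 genes (Cd3d, Cd3e, Cd3g, Trac, Cd8a and Cd8b1) by 9. No cell was in the early lymphoid set and the ILC2 or NK set at once, and none was in both the ILC2 and NK sets. The Cd3 and Cd8 set shared 2 cells with the NK set and 1 with the early lymphoid set, and 31 cells were in none of the 4.

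**Figure D1:**
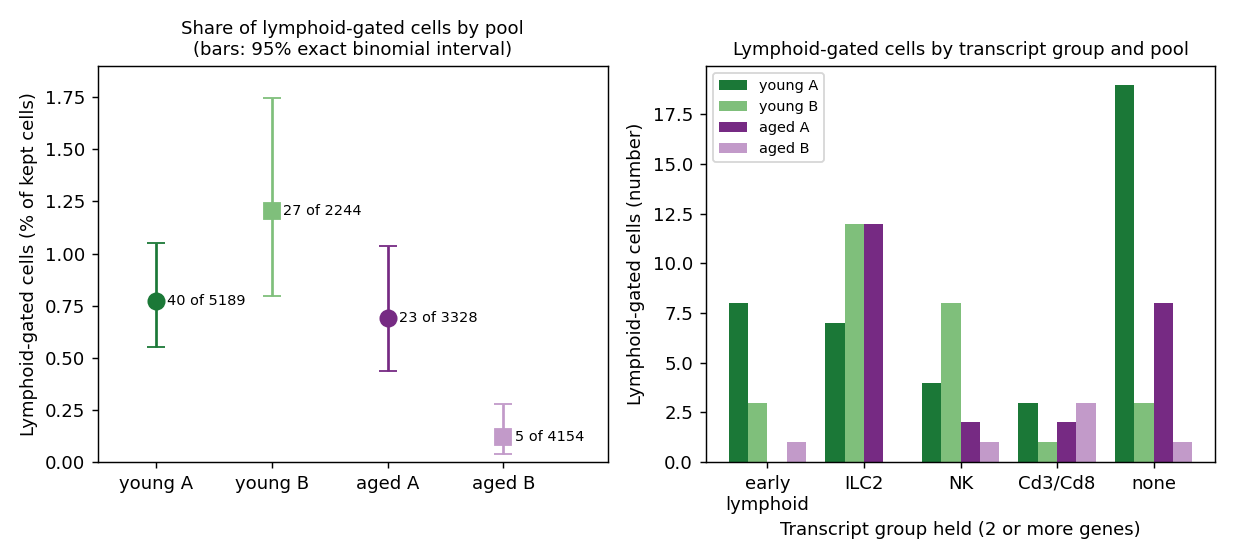
Left, lymphoid-gated cells as a percentage of the kept cells of each pool, with 95% exact binomial intervals and the cell numbers beside the points; right, number of lymphoid-gated cells of each pool (bars) that held at least 2 genes of each transcript set, or of none. Aged B had the lowest share, and the ILC2 set held 7, 12, 12 and 0 cells of young A, young B, aged A and aged B.

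The early lymphoid cells differed from the rest in what they held beside the set that defined them. All 12 held Tcf7, a transcription factor of T-cell specification, 11 held Bcl11b and 8 held Trdc, the T-cell receptor delta constant region. Only 1 of the 12 held Id2, which was counted in 28 of the 31 ILC2 cells and 12 of the 15 NK cells. No Cxcr6, Il2rb or Cd7 UMI was counted in these 12 cells, which allows up to 25% of cells with a UMI of each. Their median depth was 11070 UMIs, against 6190 in the ILC2 cells and 6529 in the NK cells, and Top2a, which is expressed in dividing cells, was held by 8 of 12 early lymphoid cells, 2 of 31 ILC2 cells and 3 of 15 NK cells. They came from young A (8 cells), young B (3) and aged B (1), and 0 of 23 cells of aged A allows a share of up to 13.0%.

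Of the gate genes, the ILC2 cells held Ccr9, Il7r and Cxcr6 most often, in 25, 25 and 22 of 31 cells, and Trbc1 in 14. Gata3 was held by 24 of the 31, Itgb7, an integrin chain of gut homing, by 17, Rora by 15 and Il2ra, the high-affinity interleukin-2 receptor chain, by 13. All 31 held Ly6a and 8 held Kit. Of the genes that placed them in the set, Il1rl1 and Ltb4r1 were held by 23 cells each, Klrg1 by 11 and Calca by 8. They came from young A (7 cells), young B (12) and aged A (12), and 0 of 5 cells of aged B allows up to 60.0%. The ILC2 set was also the only one that many cells outside the gate satisfied, with 83 other kept cells (0.560%), 46 of them in young A, against 5 for the early lymphoid set, 5 for the NK set and 2 for the Cd3 and Cd8 set.

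The NK cells held Ms4a4b in 15 of 15, Trbc1 in 13, Il2rb in 13 and Cd7 in 12, and also Il7r in 9 and Cxcr6 in 6. The activating receptors Klrb1c and Ncr1 were held by 14 and 13 cells, the chemokine Ccl5 by 12 and the chemokine receptor Cxcr3 by 8, and none of the 15 held Ccr9, which allows up to 20% of cells with a UMI. The 9 cells of the Cd3 and Cd8 set held Cd3g (9), Cd3d (8), Cd3e (6) and Thy1 (8). They were 3 cells of young A, 1 of young B, 2 of aged A and 3 of aged B. The 31 cells of no set resembled the ILC2 cells in several of the genes that had not placed them, with Id2 in 25, Gata3 in 23, Itgb7 in 17 and Ly6a in 29. Meis1, a stem cell transcription factor, was held by 17 of these 31 cells and 11 of the 31 ILC2 cells.

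**Figure D2:**
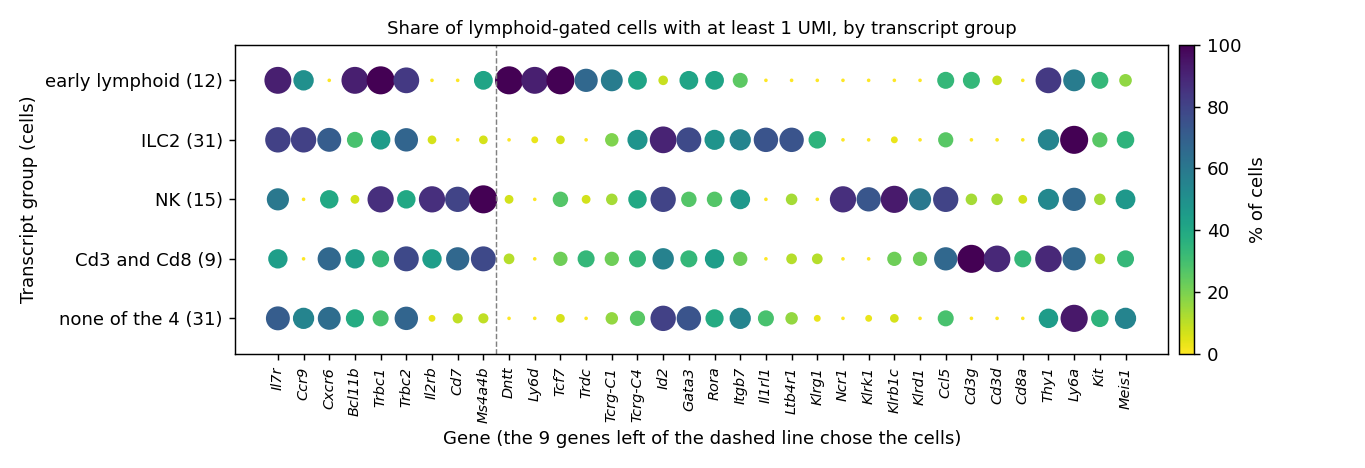
Share of lymphoid-gated cells with at least 1 UMI of each gene (columns) in each transcript set (rows, cell numbers in parentheses); size and colour of a dot give the percentage, and the genes that define the gate stand left of the dashed line. Id2 and Gata3 filled the ILC2 row, whereas Tcf7 was held by all 12 early lymphoid cells and Id2 by 1 of them.

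For the comparison with the other 14820 kept cells, the UMIs of each class were summed within each pool and tested with edgeR's quasi-likelihood test, with the pool as a block. Levels are UMIs per 1000000 UMIs of a sum (CPM). Of 5606 genes, 200 were higher in the lymphoid-gated cells (3.57%) and 141 lower (2.52%) at a Benjamini-Hochberg adjusted p below 0.05. The cells were chosen by 9 lymphoid genes measured in the same cells, so the genes that vary with those across cells belong to the same contrast. A gene had to average 20 CPM over the 8 sums, and many lymphoid genes reached this only through the lymphoid-gated sums, so counts over the tested genes are given as a description. Of the called genes, 121 of the 200 higher and 121 of the 141 lower averaged 20 CPM in both classes. For genes under 20 CPM in the class where they were lower, fold changes are given with their SE and no p. In addition, the gain in transcripts per cell cannot be told apart from a gain in the number of cells that express the gene in a sum.

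Of 27 listed T-cell receptor and signalling genes, 16 were tested and 15 were higher. The median log2 fold change over those tested was 5.89, against -0.00 for all genes tested, and 3 of the 16 reached 20 CPM in the other cells, 2 of which were higher. Thy1, a glycoprotein of T cells and some progenitors, was at 179, 222, 153 and 204 CPM in young A, young B, aged A and aged B, against 8.58, 11.3, 5.91 and 5.51 CPM in the other cells. All 4 lymphoid-gated sums lay above all 4 other sums, and the log2 fold change was 4.55 ± 0.28 (SE, n = 4 pools). Skap1, an adaptor of the T-cell receptor pathway, was at 141, 140, 130 and 92.9 CPM against 2.24, 2.40, 6.34 and 8.24 CPM, again without overlap (log2 fold change 5.06 ± 0.45).

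The gamma and delta constant regions were among the genes with the largest ratios, from few molecules. Trdc, at chr14:54142851-54148868, had 28 UMIs in 11 lymphoid-gated cells and 2 UMIs in all other cells, which is a ratio of 2204 in CPM with a 95% counting interval of 556 to 19096. Tcrg-C1 (chr13:19214103-19217024) was at 84.6, 404, 7.64 and 18.6 CPM in the 4 pools, against at most 0.471 CPM in the other cells (log2 fold change 8.50 ± 0.99). The young sums were the higher ones, and 41 of the 98 UMIs came from 1 cell. Cd3g, the gamma chain of CD3, was at 59.5, 35.1, 22.9 and 279 CPM, with the highest level in aged B, against at most 0.194 CPM elsewhere (log2 fold change 9.73 ± 1.32). Cd3d and Trac also had their highest levels in aged B, at 130 and 111 CPM. The Tcrg constant regions resemble each other in sequence, so the split of reads between them is uncertain.

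Transcription factors of the T and ILC lineages were higher for 8 of 12 tested genes, of 23 listed, and none was lower. Of the 8 that reached 20 CPM in the other cells, 4 were higher. Id2 was at 498, 562, 527 and 149 CPM, against 18.0, 10.2, 60.1 and 18.7 CPM in the other cells (log2 fold change 4.36 ± 0.32, edgeR adjusted p = 4.6e-09). Aged B was the lowest of the lymphoid-gated sums and still above every other sum. Gata3 was at 229, 187, 329 and 74.3 CPM against 30.5, 40.1, 52.5 and 46.9 CPM (log2 fold change 2.44 ± 0.22, edgeR adjusted p = 1.1e-07). Tcf7 was at 107, 105, 7.64 and 186 CPM against at most 0.554 CPM (log2 fold change 8.35 ± 1.08), and the aged A level came from 1 cell, as did that of aged B. Rora, Ets1, Maf, Ikzf2 and Ikzf3 were also higher.

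Of 14 listed ILC2 genes, 7 were tested and 6 were higher, 2 of them among the 3 that reached 20 CPM in the other cells. Il1rl1 was at 40.7, 123, 160 and 18.6 CPM against 3.38, 2.22, 3.58 and 0.662 CPM in the other cells, with no overlap between the classes (log2 fold change 4.96 ± 0.60). An Il1rl1 UMI was held by 33.7% of the lymphoid-gated cells, but by 15.7% of the erythroid-gated cells and 1.42% of all others, so this transcript was not limited to the lymphoid-gated cells. Klrg1 and Ltb4r1 were higher in young A, young B and aged A and had no UMI among the 5 cells of aged B. Of 11 ILC3 genes, 4 were tested and Ltb (508, 1007, 520 and 371 CPM against 330, 320, 201 and 203 CPM) and Ncr1 were higher. Of 12 genes of ILC precursors, 6 were tested and 5 were higher, and Zbtb16, a transcription factor of the common ILC precursor, was below the filter with UMIs in 11 cells. Itga4, an integrin chain, was at 191, 170, 122 and 186 CPM against 56.1, 62.6, 44.5 and 41.9 CPM (log2 fold change 1.65 ± 0.18, edgeR adjusted p = 2.4e-06).

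All 10 tested NK and cytotoxic genes, of 17 listed, were higher, and 4 of them reached 20 CPM in the other cells. Ccl5 was at 279, 1065, 627 and 1783 CPM against 13.0, 18.6, 9.05 and 2.32 CPM in the other cells (log2 fold change 6.28 ± 0.47). Klrd1, an NK receptor chain, was at 3.13, 93.6, 76.4 and 37.1 CPM, from 1, 5, 2 and 1 cells. Its call was lost without aged A. Nkg7, a granule protein of cytotoxic cells, was at 338, 603, 298 and 539 CPM against 200, 229, 94.8 and 79.1 CPM (log2 fold change 1.49 ± 0.21, edgeR adjusted p = 4.4e-05), and 72.1% of the erythroid-gated cells also held it. Of the 26 listed cytokine and chemokine receptors, 7 were tested and 5 were higher, among them Icos, Il1rl1, Il2rg and Tnfrsf18.

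**Figure D3:**
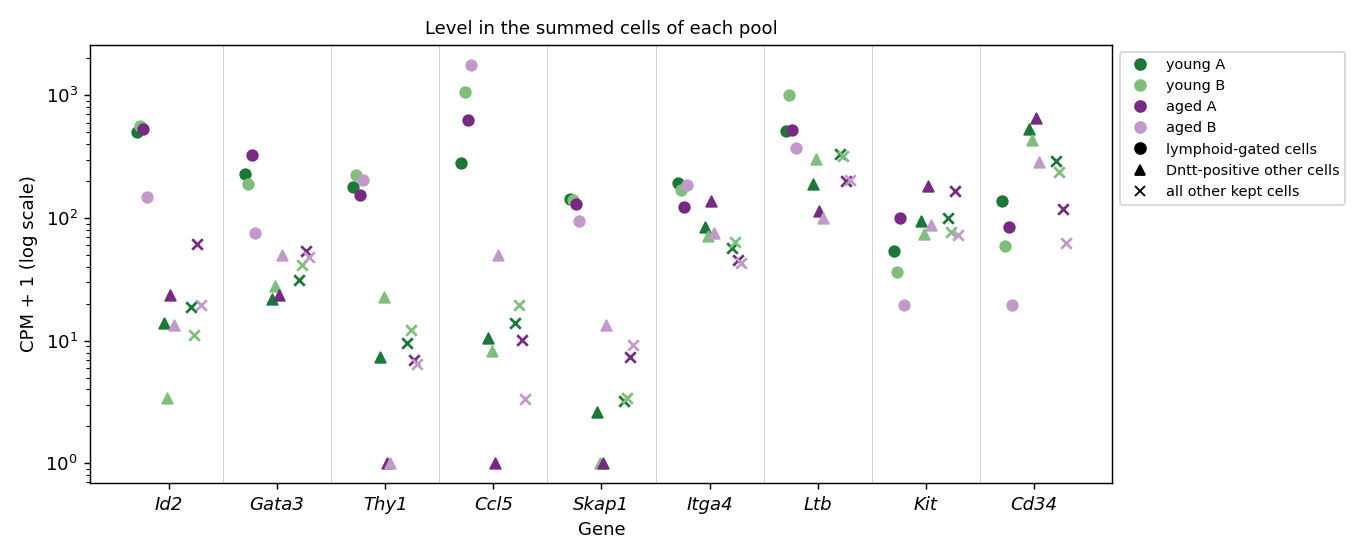
Level of 9 genes in the summed cells of each pool (CPM + 1, log scale), for lymphoid-gated cells (circles), other kept cells that held a Dntt UMI (triangles) and all other kept cells (crosses), coloured by pool. Id2, Thy1, Ccl5 and Skap1 of the lymphoid-gated sums lay above those of both comparison classes in every pool, and Cd34 below both.

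Of 16 listed early lymphoid genes, 14 lay outside the gate and 9 of these were tested, of which 7 were higher and 1, Cd34, was lower. Of the 6 that reached 20 CPM in the other cells, 4 were higher and 1 lower. Ly6d was at 620, 269, 7.64 and 539 CPM against 1.69, 2.59, 2.95 and 1.44 CPM (log2 fold change 7.25 ± 0.53), from 7, 3, 1 and 1 cells. Satb1, a chromatin organizer of early lymphoid cells, was at 135, 70.2, 45.8 and 55.7 CPM against 17.2, 10.1, 6.10 and 1.02 CPM. Its level was above that of the other cells in all 4 pools (log2 fold change 3.09 ± 0.41). Dntt was at 294, 521, 0 and 55.7 CPM, so the groups overlapped in aged A, where the other cells were at 0.339 CPM.

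Stem cell genes went the other way. Of 17 listed HSC genes, 13 were tested and 9 were lower, among them Cd34, Gata2, Hlf, Kit, Meis1, Mllt3, Procr and Sult1a1, whereas Ltb and Ly6a were higher. The median log2 fold change of the list was -0.92, and all 13 reached 20 CPM in the other cells. Hlf, a transcription factor of HSCs, was at 62.7, 111, 199 and 74.3 CPM against 197, 204, 275 and 196 CPM (log2 fold change -1.05 ± 0.21, edgeR adjusted p = 0.0027). It was lower in all 4 pools. Kit was at 53.3, 35.1, 99.3 and 18.6 CPM against 99.7, 75.4, 164 and 71.7 CPM (log2 fold change -0.95 ± 0.24, edgeR adjusted p = 0.016). Ly6a, by contrast, was at 360, 515, 665 and 92.9 CPM against 162, 251, 230 and 355 CPM, higher in 3 pools and lower in aged B (log2 fold change 0.88 ± 0.25, edgeR adjusted p = 0.041).

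The largest decreases were in genes of other lineages, and the part of their transcripts that was background was not measured. The basophil protease Prss34 was at 65.8, 23.4, 30.6 and 0 CPM against 1092, 1141, 459 and 331 CPM (log2 fold change -4.47 ± 0.24, edgeR adjusted p = 6.5e-11). Even so, 25.3% of the lymphoid-gated cells and 25.9% of the other kept cells held a Prss34 UMI, and no lymphoid-gated cell held more than 2. With the gate lowered to 2 or more genes, Prss34 and Mcpt8, the 2 mast and basophil genes that were lower, differed by log2 0.29 and 0.36 (edgeR adjusted p = 0.80 and 0.43). Prg2, an eosinophil granule protein, had 1 UMI in the 95 cells, a ratio of 0.0369 with a counting interval of 0.000933 to 0.206. The immunoglobulin gene Igkc was at 65.8, 41.0, 688 and 149 CPM against 376, 263, 3158 and 1673 CPM (log2 fold change -2.56 ± 0.17, edgeR adjusted p = 9.5e-10). It was highest in aged A in both classes, where all 23 lymphoid-gated cells held it. Of the listed markers, 3 of 5 tested plasma cell genes, 4 of 7 neutrophil genes, 2 of 4 erythroid genes and 2 of 3 mast and basophil genes were lower and none was higher. The summed level of the 10 plasma cell genes was 119, 135, 611 and 55.7 CPM in the lymphoid-gated cells and 198, 154, 1487 and 408 CPM in the others, with Igha the most abundant in the lymphoid-gated cells of aged A and 7 of the 10 genes at 0 in those of aged B, where 3 genes had 1 UMI each. That of the 9 mast and basophil genes was 351, 269, 596 and 279 CPM against 2094, 2219, 973 and 641 CPM. The part of these transcripts in the other results was not tested.

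**Figure D4:**
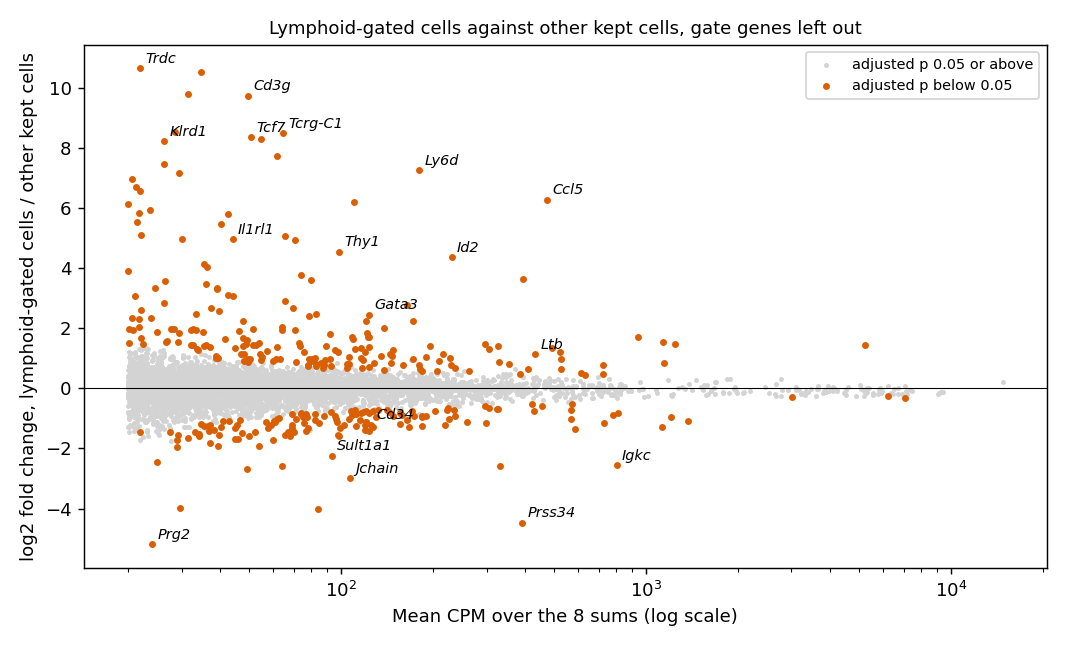
Log2 fold change of the lymphoid-gated cells over the other kept cells against the mean level over the 8 sums (CPM, log scale) for 5606 genes, with the gate genes left out; orange points passed an adjusted p of 0.05. Most of the largest increases were T-cell receptor and NK genes of low mean level, and the largest decreases were Prg2 and Prss34.

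Cell-cycle genes showed no common shift. None of 14 S-phase genes passed the test in either direction, and 2 of 14 tested mitosis genes (Ccnb2 and Cenpf) were higher. The summed level of the 15 mitosis genes was 2231, 960, 176 and 557 CPM in the lymphoid-gated cells and 957, 788, 448 and 605 CPM in the others, higher in both young pools and lower in both aged pools. In young B, 151 of the 164 UMIs came from 1 cell, as did all UMIs of Ccnb2 and Cenpf, and without that cell the sum was 82.2 CPM, below that of the other cells. Of 11 tested immediate early genes, Junb, Klf6 and Fosb were higher. Klf6 was however lower in aged B (37.1 against 45.4 CPM) and Fosb in young B (0 against 3.45 CPM). The summed level of the 12 immediate early genes was 2033, 825, 7870 and 706 CPM against 1469, 453, 5256 and 989 CPM. It was highest in aged A in both classes and lower than in the other cells in aged B. Of 8 tested interferon response genes, Ifitm3, Iigp1 and Oasl2 were lower.

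The counts of this comparison depended on the model and on the young pools. With the pools not blocked, 71 genes were higher and 11 lower, without young B the numbers were 107 and 83, and without young A 139 and 67. Without the 12 cells that held a Cd3 or Cd8 UMI, an alternative chosen after seeing the data, 160 genes were higher and 97 lower. Among the named genes lower in the lymphoid-gated cells, Prg2, Hba-a2, Sult1a1 and Smim6 lost their call with DESeq2, Iigp1 without young A and Smim6 without young B. Of the named genes of largest change in either direction, 12 lost their call with pools not blocked. After thinning to 3000 UMIs 5 lost it, and with no UMI filter on cells 2.

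The lymphoid-gated cells were next set against the 133 other kept cells that held a UMI of Dntt, an early lymphoid gene (73, 47, 6 and 7 cells). Dntt and the gate genes were left out. Of 5597 genes, 117 were higher (2.09%) and 46 lower (0.822%) in the lymphoid-gated cells. Id2 was at 13.0, 2.43, 22.9 and 12.4 CPM in the Dntt-positive cells, below the lymphoid-gated level of the same pool each time (log2 fold change 5.64 ± 0.34). Ccl5 was at 9.60, 7.30, 0 and 49.4 CPM (log2 fold change 5.80 ± 0.29). Cd3g, Cd2, Trdc, Ikzf3 and Trac had no UMI in the Dntt-positive cells, and against 3 counts over that class they were at least 24.6-fold, 18.9-fold, 16.0-fold, 13.2-fold and 9.74-fold higher. Skap1 and the lymphocyte GTPases Gimap3 and Gimap4 had 2 UMIs each in the Dntt-positive cells, with ratios of 78.2 (counting interval 21.0 to 656), 74.8 (20.1 to 627) and 76.5 (20.6 to 642).

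Of the early lymphoid list, of which Dntt had chosen the comparison cells, 10 genes were tested, 3 were lower in the lymphoid-gated cells (Cd34, Flt3 and Cd48), 1 was higher (Ly6d) and 6 were not called, with a median log2 fold change of -0.32. Cd34, an antigen of multipotent progenitors, was at 138, 58.5, 84.0 and 18.6 CPM in the lymphoid-gated cells, below the Dntt-positive cells in all 4 pools (log2 fold change -2.44 ± 0.23, edgeR adjusted p = 8.5e-08). Flt3, a receptor of lymphoid-primed multipotent progenitors against which the cells had been sorted, was counted in 6 lymphoid-gated cells and was also lower (log2 fold change -3.26 ± 0.50). Cd48 was lower than in the Dntt-positive cells (log2 fold change -1.29 ± 0.24, edgeR adjusted p = 0.0012) and higher than in all other kept cells (0.98 ± 0.28, edgeR adjusted p = 0.038). Ly6d was higher than in the Dntt-positive cells (log2 fold change 3.53 ± 0.54, edgeR adjusted p = 0.00013). Of the 13 tested transcription factors of the T and ILC list, 7 were higher, of 10 NK and cytotoxic genes 7, of 7 ILC2 genes 6, and of 12 HSC genes 2 were higher and 1 lower. Among genes that reached 20 CPM in the Dntt-positive cells, 1 of 6 transcription factors, 0 of 3 NK and cytotoxic genes and 2 of 2 ILC2 genes were higher. The remaining genes named among the largest decreases were Hbb-bt, Bex6, Otos, Plppr3, Gm5111, Lap3, Ccl9, Rtp4, Gcnt2 and BC028528. Of these, Hbb-bt, Bex6, Lap3, Plppr3, Gcnt2 and BC028528 lost their call without young A, Plppr3, Lap3, Ccl9, Rtp4, Gcnt2 and BC028528 without young B, and Rtp4 and BC028528 without aged A. Cd2, Ikzf3 and Trac also lost theirs without young B. Without young B, 52 genes were higher and 18 lower in all, and thinning to 3000 UMIs left 52 genes higher and 12 lower, and Tcrg-C1 then differed by a log2 fold change of 1.11, with no call, against 5.95 on all UMIs. Of the named genes of largest change, 13 lost their call after thinning and 7 with DESeq2.

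The study compared young with aged mice, so the share and the transcripts of the lymphoid-gated cells were compared by age. Their share of the kept cells was 0.771% in young A (interval 0.551 to 1.05), 1.20% in young B (0.794 to 1.75), 0.691% in aged A (0.439 to 1.04) and 0.120% in aged B (0.0391 to 0.281). Both aged pools lay below both young pools, but the intervals of young A and aged A overlapped almost fully, and the intervals cover counting error only. The mean was 0.987% ± 0.306 in young and 0.406% ± 0.404 in aged pools (SD, n = 2 each), a difference of -0.58 percentage points (two-sided exact permutation p = 0.333, the smallest p that 2 against 2 pools allow). Within facility A the difference was -0.08 percentage points and within facility B -1.08, a ratio of young to aged of 1.12 and 10.0. The study states about 45000 reads per cell for young A and aged B and about 130000 for young B and aged A. Age within a facility thus also differed in sequencing depth, in opposite directions, and the part of depth in these differences was not tested. Without aged B the difference was -0.30 percentage points. With every cell thinned to 3000 UMIs the shares were 0.405%, 0.547%, 0.254% and 0.0723%, and without the cells that held a Cd3 or Cd8 UMI they were 0.675%, 1.12%, 0.631% and 0.0482%.

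Within the lymphoid-gated cells, none of 2397 tested genes passed the age comparison (0%), in which the facility was a block. DESeq2 also called 0, and 41 genes had an unadjusted edgeR p below 0.05, of which 26 were higher and 15 lower in aged pools. With 1 pool left out, the 3 sums left allow no facility block, and the spread came from the 2 pools of the other age alone. Such fits called 21 genes without aged B, 21 without young A, 12 without young B and 2 without aged A, and the fit to all 4 pools with no block called 0. In the other kept cells, which were far more numerous, 200 of 13510 genes were called (1.48%), but 0 were without the facility block (1088 at an unadjusted p below 0.05), 0 without aged B (1066) and 4 without aged A. The gene with the lowest p in the lymphoid-gated cells was Nupr1, a stress-induced transcriptional regulator, at 3.13 and 0 CPM in young A and young B and 229 and 149 CPM in aged A and aged B. Its UMIs were in 1 of 40, 0 of 27, 14 of 23 and 3 of 5 cells, and the ages did not overlap (log2 fold change 6.22 ± 0.74, edgeR adjusted p = 0.27). In the other kept cells Nupr1 was at 12.9, 20.9, 372 and 550 CPM and rose with age (log2 fold change 4.73 ± 0.21, edgeR adjusted p = 0.013, but 0.11 without the facility block, 0.071 without aged A and 0.15 without aged B), and the test of the difference between both changes gave an adjusted p of 1.0. Of the lists with at least 7 tested genes, the median log2 fold change with age was -2.21 for mitosis (9 genes), -1.11 for early lymphoid genes (9), -0.66 for T and ILC transcription factors (7), -0.36 for T-cell receptor genes (8), -0.18 for NK genes (7), 0.05 for S phase (10), 0.15 for the HSC aging genes that the study named (8), 0.79 for HSC genes (9) and 0.997 for immediate early genes (7), against -0.01 for all genes tested, with no gene called in any of them. The young B mitosis sum came almost wholly from 1 cell, as given above, and without the cell of most mitosis UMIs in each pool the sums were 1903, 82.2, 138 and 153 CPM. For immediate early genes the sums were 2033, 825, 7870 and 706 CPM in young A, young B, aged A and aged B. For HSC genes they were 1450, 2142, 2697 and 1114 CPM. Both lists were thus higher in the aged pool at facility A and lower in the aged pool at facility B. At each facility the higher sum was that of the pool with more stated reads per cell, and the part of depth was not tested.

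Age changes that differed between the lymphoid-gated cells and the other kept cells were found for 9 of 5606 genes (0.161%). Klrb1c, an NK receptor gene, was at 18.8, 211, 38.2 and 18.6 CPM in the lymphoid-gated cells and 1.58, 2.46, 28.6 and 35.3 CPM in the others. It thus rose with age in the other cells (log2 fold change 3.96 ± 0.20, edgeR adjusted p = 0.013, but 0.11 without the facility block, 0.13 without aged A and 0.18 without aged B) and differed in its age change by -5.38 on the log2 scale (SE 0.79, edgeR adjusted p = 0.00095). Id2 was at 18.0 and 10.2 CPM in young and 60.1 and 18.7 CPM in aged other cells, while the lymphoid-gated level was near 500 CPM in 3 pools and lowest in aged B (difference of the changes -2.18 ± 0.36, edgeR adjusted p = 0.0037). Cd74, the invariant chain of MHC class II, S100a6 and Ighm had age changes lower in the lymphoid-gated cells by -2.16, -1.85 and -1.63. Pf4, Elane, Mcpt8 and Ctsg had age changes higher in the lymphoid-gated cells, but the difference turned to -0.61 for Pf4 and -0.44 for Elane after thinning, to -1.67 for Mcpt8 with 2 or more gate genes, and to -10.14 for Elane and -0.76 for Ctsg with 4 or more. With no UMI filter on cells none of the 9 was called by edgeR (206 genes at an unadjusted p below 0.05), DESeq2 called 2 genes, and 3 were called without the cells that held a Cd3 or Cd8 UMI. Each of the 9 lost its call without at least 1 pool, in fits whose spread came from the age that still had 2 pools. Pf4, Klrb1c, Id2, S100a6, Cd74 and Ighm lost it without aged B, where 5 cells made up the lymphoid-gated sum, and Klrb1c, Id2, S100a6, Cd74, Mcpt8, Ighm and Ctsg without young B. Elane and Ighm lost it without young A, and without aged A the call of Ighm was lost and those of Elane, Mcpt8 and Ctsg turned to the other direction. The log2 difference of Pf4 was 2.80 without aged B, where 106 of the 111 Pf4 UMIs came from 1 cell.

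**Figure D5:**
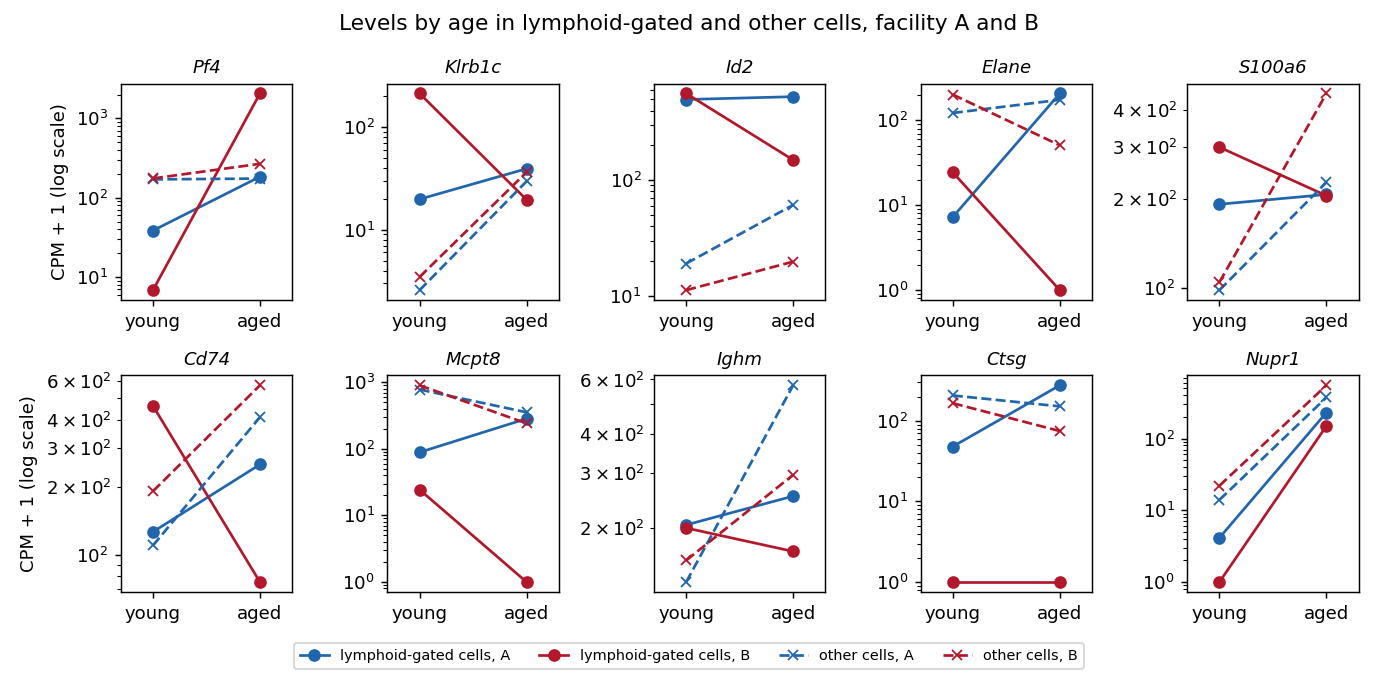
Level (CPM + 1, log scale) by age of the 9 genes whose age change differed between classes and of Nupr1, in the lymphoid-gated cells (circles, solid lines) and the other kept cells (crosses, dashed lines) of facility A (blue) and B (red). Klrb1c rose with age at both facilities in the other cells, Nupr1 was higher in the aged sum of every line, and the aged B level of Pf4 came almost entirely from 1 cell.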

How the data were processed

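The authors deposited one matrix of unnormalized UMI counts (genes by cell barcodes) for each pool, made with Cell Ranger 2.2.0 on GRCm38 (mm10), per the labels and the study's methods. All 15566 barcodes of the 4 pools were read and 28692 genes were listed. Kept cells had 16399999 to 36446168 UMIs per pool, and the lymphoid-gated cells 53841 to 319206, which limits the precision of every level. The members and gene lists were chosen with earlier results of these data known.

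UMIs were summed per class and pool, and tested with edgeR 4.0.16 in R 4.3.3 (quasi-likelihood, Benjamini-Hochberg threshold 0.05) after the 9 gate genes were left out. The class comparisons had the pool as a block and a minimum mean of 20 CPM over the sums, and the age fits the facility as a block and edgeR's expression filter. Mice were pooled, so p-values measure the spread between pools. The letters pair the pools because the labels name a facility for each, and the deviations of same-letter sums correlated at r = 0.551 in the other cells and 0.0679 in the lymphoid-gated cells. Named genes were list members by level, the 12 called genes of greatest log2 fold change, upward and downward, whose sign was the same in all 4 pools, and all genes called for class by age. Intervals are exact binomial at 95%, a count of 0 is given the limit of 3 cells of the total, and both cover counting error only and limit cells with a UMI. Doublets were scored against simulated cell pairs and left in. Gene positions came from GENCODE M21 by Ensembl ID. In data simulated at a dispersion (spread beyond counting error) of 0.05, the class comparison recovered 94.6% of 4-fold and 39.3% of 2-fold changes over 5596 genes. The age comparison of lymphoid-gated cells recovered 75.7% and 18.6% over 2417 genes. This dispersion was not fitted to the sums, and no single cell was made to carry most UMIs of a gene. The recovered shares therefore may not hold for the lymphoid-gated sums. Alternatives were DESeq2 1.42.0, its size factors, other filters, gates, thinning and leaving out each pool. Some genes of the lists are not reported here by name.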

Additional observations from a re-analysis of the deposited data

Results flagged for a closer look

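The age change in the lymphoid-gated cells differed from that in the other kept cells for 9 genes by the interaction term of edgeR's quasi-likelihood fit, given as log2 differences with Benjamini-Hochberg adjusted p. The difference was 4.45 for Pf4 (adjusted p = 0.00095), 3.57 for Elane (0.020), 3.15 for Ctsg (0.043) and 2.84 for Mcpt8 (0.040), all genes of other blood lineages. It was -5.38 for Klrb1c (0.00095), -2.18 for Id2 (0.0037), -2.16 for Cd74 (0.040), -1.85 for S100a6 (0.040) and -1.63 for Ighm (0.040). Single cells carried several of these values. In the lymphoid-gated cells of aged A, Elane was held by 2 cells with 27 UMIs and Ctsg by 3 cells with 36 UMIs, and neither gene had a UMI in aged B. The same cell held 26 of these Elane UMIs and 34 of these Ctsg UMIs.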

How the results depend on the processing

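The lower share of lymphoid-gated cells in aged pools kept its direction under all alternatives run, from -0.30 to -0.87 percentage points when single pools were left out. The aged B sum held 5 cells and 53841 UMIs, the fewest of the 4. In data simulated at the same fixed dispersion of 0.05, the class by age fit found 0% of 2-fold changes and 14.5% of 4-fold changes. Against the other kept cells, DESeq2 called 65 genes lower, the fit with no low-count filter 341 higher and 261 lower over 19016 genes, and the fit with pools not blocked 71 and 11. Leaving out single pools gave 107 to 209 higher and 67 to 131 lower. Against the Dntt-positive cells, DESeq2 called 59 higher and 11 lower, thinning gave 52 and 12, and leaving out single pools 52 to 158 and 18 to 71. The log2 ratio of the summed mitosis level to that of the other cells, without the 1 cell of most mitosis UMIs in each pool (chosen after seeing the data), was 0.99 in young A, -3.26 in young B (0.28 with it), -1.70 in aged A and -1.98 in aged B. With 2 or more gate genes, the differences of Prss34 and Mcpt8 from the other cells reversed to log2 0.29 and 0.36. The cause of these changes was not tested.

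For age in lymphoid-gated cells, the counts were 3 genes with 2 or more gate genes, 1 without cells with Cd3 or Cd8 UMIs, 10 with no low-count filter, and 2 to 21 with single pools left out. For age in the other kept cells they were 345 with no UMI filter on cells, 549 with DESeq2, 405 with its size factors, 1022 with no low-count filter and 0 to 285 with single pools left out. Such age fits on 3 pools left out the block, with spread only from the age that still had 2 pools, so the remaining pool is taken to share it. In the paired design, the fit with no replicate block called 0 genes in the other cells (200 with it; 1088 at an unadjusted p below 0.05) and 0 in the lymphoid-gated cells. DESeq2 called 549 with the block.

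Class by age gave 0 genes with no UMI filter on cells (206 at an unadjusted p below 0.05), 3 without cells with Cd3 or Cd8 UMIs, 2 with DESeq2, 16 with no low-count filter and 4 to 20 with single pools left out. Thinning reversed Pf4 to -0.61 and Elane to -0.44, 2 or more gate genes Mcpt8 to -1.67, and 4 or more gate genes Elane to -10.14 and Ctsg to -0.76. With single pools left out, Elane ranged from -8.96 to 4.20, Mcpt8 from -11.10 to 4.25 and Ctsg from -10.40 to 14.32, in each case lowest without aged A.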

Other observations

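Lists of other lineages that the comparisons above left out showed few calls between the lymphoid-gated cells and the other kept cells. Of the megakaryocyte genes, 0 of 6 tested passed edgeR's test, and of the dendritic genes 0 of 4. Of 3 tested B-cell genes 1 was higher, which was Ly6d, a gene also listed as early lymphoid. Of 6 tested sort antigen genes, Ptprc, Cd48 and Ly6a were higher and Cd34 and Kit lower. Of 16 tested genes that the study named for HSC aging, a list chosen on these samples, 4 were higher (Tcrg-C4, Plac8, Cd48 and Cdkn1a) and 5 lower (Cd34, Procr, Clu, Nupr1 and Alcam). Cdkn1a was lower in aged A (38.2 against 58.7 CPM), and 16 of its 20 UMIs in aged B came from 1 cell.

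Nupr1 transcripts were also counted by transcript set, and a difference between the sets was not tested. A Nupr1 UMI was held by 6 of 31 cells of the ILC2 set, 3 of 15 of the NK set, 4 of 9 of the Cd3 and Cd8 set, 7 of the 31 cells of no set and 0 of 12 of the early lymphoid set, which allows a share of up to 25%. As 11 of those 12 cells were from young pools, set and age cannot be told apart.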
